A study of Mus musculus with 5 samples.

Results

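Fcgr1, Fcgr2b, Fcgr3, Fcer1g, Clec4e, Clec4d and Clec4n encode macrophage receptors for IgG antibody and for microbial sugars and lipids, together with the signalling chain several of them share. Every probe set whose annotated gene symbol, or current name by Entrez ID, was one of these 7 was taken. Of the 7 genes, 6 had a probe set on the array, 8 probe sets in all, out of 8251 genes named there. Clec4n, which encodes Dectin-2, was named by none and was not analysed here. The signal of Fcgr3 was too low for the test, so 5 genes were tested among 5581.

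The series used 5 Affymetrix MG-U74Av2 arrays of RNA from mouse peritoneal macrophages and addresses the effect of ethanol, given acutely by mouth, on the genes that poly IC induces; poly IC is a synthetic double-stranded RNA that mimics a virus. The groups were 1 untreated (naive) sample, 2 pooled samples from poly IC-treated animals, and 2 from animals that received poly IC plus ethanol at 6 g/kg. The poly IC dose was 0.1 mg per mouse in the second poly IC pool and in both ethanol pools, and the label of the first poly IC pool states none. Treated mice were C57Bl/6 x C3H F1 females aged 12 weeks, whereas the naive label gives neither strain, sex nor age. There was no array of ethanol alone, so each ethanol comparison is with poly IC in both arms or with the naive sample. The number of mice in a pool is not stated. The p-values rest on the spread between treated pools, much of it estimated over all genes, and not on the spread between mice.

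Fc gamma receptors bind the constant part of IgG and let macrophages take up antibody-coated particles and immune complexes. Activating members such as Fcgr1 and Fcgr3 signal through the FcR gamma chain, encoded by Fcer1g, whose ITAM motif recruits the kinase Syk, and Fcgr2b carries an inhibitory ITIM motif that recruits phosphatases such as SHIP1. The lectin receptors Clec4e (Mincle), Clec4d (MCL) and Clec4n (Dectin-2) bind mycobacterial glycolipids or fungal mannans and use the same gamma chain and Syk.

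Signals are linear intensities scaled to one target per array. A signal was called above background when it exceeded every one of the array's 19 unspiked controls, a floor of 299.6 to 443.8. Differences were fitted with limma on log2(signal + 250), which compresses the folds of dim genes, and a gene was called at a Benjamini-Hochberg adjusted p under 0.05 over all 5581 genes. The macrophage genes Cd68, from 25163 to 27474, and Lyz2, from 73144 to 81816, were above the floor on all 5 arrays and were not called in any comparison. Both were named after their values were seen. They are among 17 resident macrophage markers tested, of which 3 were called higher and 4 lower with poly IC against naive. Whether macrophage content was constant was not tested. Over all genes, 654 were called higher and 1121 lower with poly IC against naive, and 322 higher and 268 lower with added ethanol against poly IC. Against naive, poly IC plus ethanol had 468 higher and 461 lower. Centring each array on its median turned these splits to 843 and 721, 194 and 286, and 497 and 270, because the median gene differed by -0.16, 0.07 and -0.11 log2 units. The naive array has no replicate, and both comparisons with it assume that it varies like the treated arrays.

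Poly IC raised all 5 tested receptor genes, against 11.7% of all tested genes called higher and 31.8% called in either direction. Fcgr1 and Clec4e were the most induced, Clec4d and Fcgr2b rose less, and Fcer1g least. Their median difference was 1.68 log2 units, against -0.16 over all genes. Added ethanol lowered 2 of the 5, Fcgr1 and Clec4e, against 4.8% of all genes called lower (10.6% either way), and none was called higher. The median of the 5 in that comparison was -0.44, against 0.07 over all genes. In these bulk samples fewer cells of a type and less RNA per cell cannot be told apart.

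**Figure D1:**
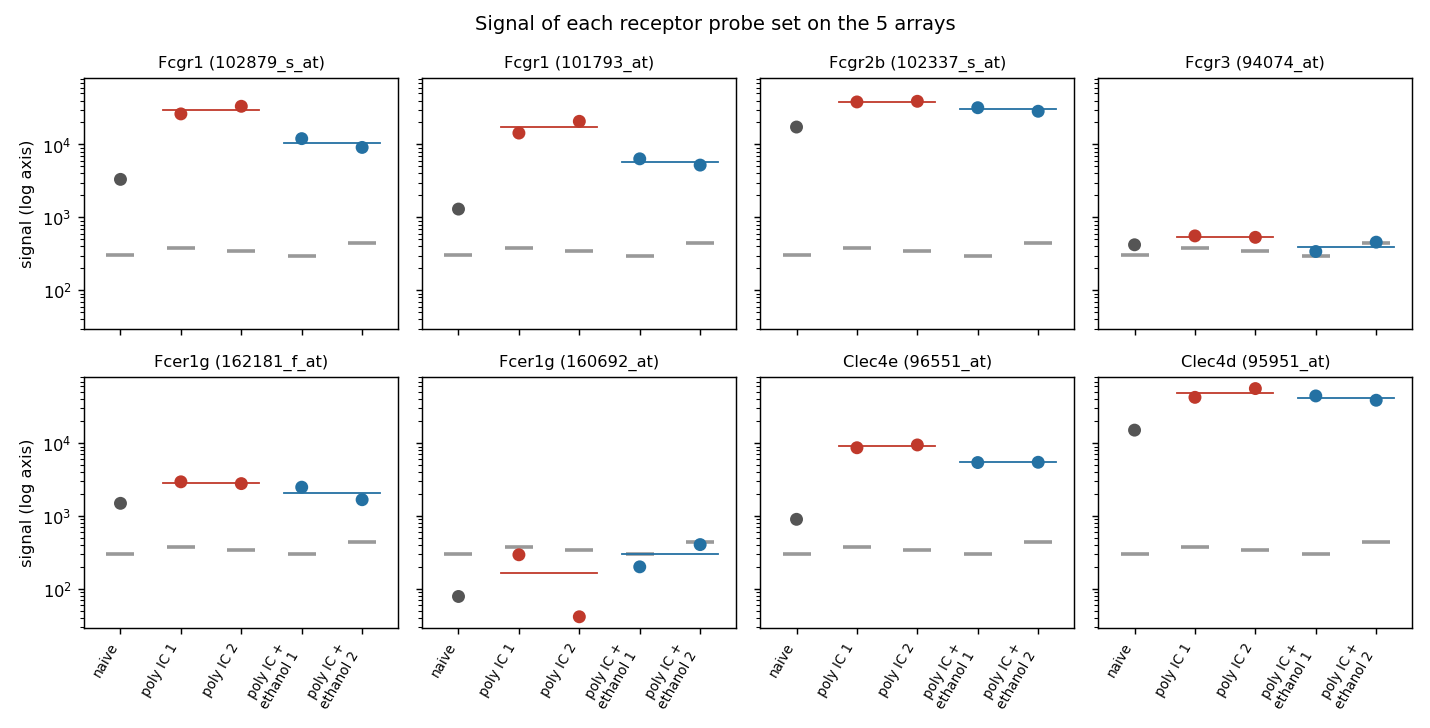
Signal on a log axis for each of the 8 probe sets on the 5 arrays, with 1 point per array, horizontal lines for the mean of the 2 arrays of a treated group and grey ticks for the array's floor. Both Fcgr1 probe sets and Clec4e were highest on the poly IC arrays and intermediate with ethanol, whereas Fcgr3 and the second Fcer1g probe set lay near or under the floor.

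Fcgr1, the high-affinity IgG receptor and a gene known to respond to interferon, has 2 probe sets on the array. The brighter one, 102879_s_at, read 3323 in the naive sample, 26225 and 33345 with poly IC, then 12016 and 9109 with poly IC plus ethanol. The poly IC arrays were both above the ethanol arrays and all 4 treated arrays were above the naive one, with no overlap between groups. The means were 29785 ± 5035 with poly IC and 10562 ± 2056 with added ethanol (SD, n = 2 each). Relative to naive, the arrays stood at 7.89 and 10.0 times with poly IC and at 3.62 and 2.74 times with ethanol. In limma, Fcgr1 rose with poly IC by 3.06 log2 units (SE 0.21, 95% interval 2.59 to 3.54, adjusted p = 4.21e-06), ranking 75 among 5581 genes by size of increase. With added ethanol it fell by 1.48 log2 units against poly IC (SE 0.17, interval -1.86 to -1.09, adjusted p = 0.00127), ranking 23 by size of decrease. Against naive it was still higher with ethanol, by 1.58 (SE 0.21, adjusted p = 0.000653).

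The suffix of the brighter Fcgr1 probe set marks probes shared with related transcripts, and a contribution of such transcripts was not tested. The other Fcgr1 probe set, 101793_at, which lacks that suffix, gave the same order of arrays' groups. Its signal was 1301 in the naive sample, 14331 and 20751 with poly IC, then 6355 and 5215 with ethanol. Tested by limma among all passing probe sets, it was higher by 3.50 log2 units with poly IC (SE 0.24, adjusted p = 7.66e-06) and lower with ethanol than with poly IC (difference -1.54, SE 0.20, adjusted p = 0.00283). The ethanol difference of the brighter probe set was between -1.67 and -1.28 in every alternative run, with adjusted p from 4.08e-11 to 0.0423.

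The promoter of Fcgr1 is printed because it held a match to the gamma-activated site (GAS, TTCNNNGAA), an element named for its role in interferon responses. The windows here and below are 300 bases from RefSeq, assembly GRCm38.p6, read on the gene's strand 5′ to 3′ from 250 bases before the annotated start, and capitals mark motif matches.
Fcgr1, chr3:96293920-96294219, minus strand: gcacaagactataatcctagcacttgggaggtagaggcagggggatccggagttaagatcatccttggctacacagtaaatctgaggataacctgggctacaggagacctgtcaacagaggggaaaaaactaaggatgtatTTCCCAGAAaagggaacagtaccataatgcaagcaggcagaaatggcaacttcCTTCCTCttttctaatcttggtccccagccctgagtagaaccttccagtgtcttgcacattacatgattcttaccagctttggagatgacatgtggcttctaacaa
The GAS match TTCCCAGAA begins at -109 from the annotated start, and GAS letters occurred in 8.3% of 32851 promoter windows, either strand. CTTCCTC, at -56, is the reverse complement of GAGGAAG, a PU.1 motif found in 13.6% of windows. No match was found to the interferon-stimulated response element (ISRE, TTTC, any 2 bases and TTTC), an NF-kB motif (GGG, any 2 bases, TT, any base and CC) or a C/EBP motif (TTGCNNAA), each searched on both strands. A match is a description of letters and was not tested as a binding site.

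Fcgr2b encodes the inhibitory Fc receptor. Its signal was 17326 in the naive sample, 38248 and 39040 with poly IC, then 31884 and 28509 with poly IC plus ethanol. All 4 treated arrays were above the naive one, and the ethanol arrays lay between naive and poly IC without overlap. The means were 38644 ± 560 and 30197 ± 2387 (SD, n = 2 each). In limma, Fcgr2b rose with poly IC by 1.15 log2 units (SE 0.14, interval 0.84 to 1.45, adjusted p = 0.000179). With added ethanol its difference from poly IC was -0.36 (SE 0.11, interval -0.60 to -0.11), with an unadjusted p of 0.00977 and an adjusted p of 0.0727, which missed the threshold. Without the first ethanol array that difference was -0.43 with adjusted p = 0.0138, and adjusted p ran from 0.0138 to 0.468 over the alternatives. Against naive, Fcgr2b was higher with ethanol by 0.79 (SE 0.14, adjusted p = 0.00323, and 0.0617 without the intensity trend in limma's prior). The suffix of its probe set, 102337_s_at, marks probes shared with related transcripts, and a contribution of such transcripts was not tested.

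Fcgr3, the low-affinity activating receptor, had a mean signal under the filter of 513. It read 422 in the naive sample, 558 and 534 with poly IC, then 341 and 458 with ethanol. The poly IC arrays were highest and the ethanol arrays straddled the naive value, and every array was close above its floor. In a limma fit over all named probe sets, with no filter, its differences were 0.24 (SE 0.38, adjusted p = 0.764) for poly IC against naive and -0.30 (SE 0.31, adjusted p = 0.712) for ethanol against poly IC. The intervals, -0.66 to 1.15 and -1.04 to 0.44, are wide and include 0, and no change was detectable at this signal.

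Fcer1g encodes the FcR gamma chain, needed at the surface by Fcgr1, Fcgr3 and the lectins above. The probe set used, 162181_f_at, read 1499 in the naive sample, 2955 and 2793 with poly IC, then 2494 and 1681 with ethanol. The ethanol arrays were apart from each other, at 1.66 and 1.12 times naive, and both lay below the poly IC arrays. In limma, Fcer1g rose with poly IC by 0.84 log2 units (SE 0.26, interval 0.26 to 1.41, adjusted p = 0.0322). That call was lost without the first poly IC array (0.80, adjusted p = 0.123) and without the second (0.87, adjusted p = 0.0977), as well as with no filter (0.0807) and without the intensity trend in limma's prior (0.0661). Adjusted p ran from 0.00131 to 0.123 over the alternatives. The difference with added ethanol was -0.44 (SE 0.21, interval -0.91 to 0.03, adjusted p = 0.22). Without the first ethanol array it became -0.69 with adjusted p = 0.0201, the lowest of a range up to 0.658. Against naive the ethanol arrays differed by 0.40 (SE 0.26, interval -0.18 to 0.97, adjusted p = 0.333). The suffix of this probe set marks probes that match a sequence family, and the other Fcer1g probe set, 160692_at, was below the floor on all 5 arrays, at 41.8 to 407.7.

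Clec4e encodes Mincle, which senses mycobacterial cord factor and material from dying cells. Its signal was 905 in the naive sample, 8661 and 9459 with poly IC, then 5429 and 5475 with poly IC plus ethanol. The groups did not overlap, and the 2 arrays within each treated group were close, at 9060 ± 565 and 5452 ± 32.3 (SD, n = 2 each). The arrays stood at 9.57 and 10.5 times naive with poly IC and at 6.0 and 6.05 times with ethanol. In limma, Clec4e rose with poly IC by 3.01 log2 units (SE 0.19, interval 2.59 to 3.43, adjusted p = 2.16e-06), rank 80 by size of increase. With added ethanol it fell by 0.71 against poly IC (SE 0.15, interval -1.05 to -0.36, adjusted p = 0.02). That call was lost when an arm kept 1 poly IC array, at -0.77 with adjusted p = 0.109 without the first and -0.64 with adjusted p = 0.207 without the second. It was also lost without the intensity trend (0.0778), and adjusted p over the alternatives ran from 0.00475 to 0.207. Against naive it remained higher with ethanol, by 2.30 (SE 0.19, adjusted p = 1.98e-05), the largest such difference of the 5 genes.

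Clec4d encodes MCL, a partner of Mincle that is also found on neutrophils. It read 15097 in the naive sample, 42481 and 56037 with poly IC, then 44414 and 38758 with ethanol. All 4 treated arrays were above naive, and the ethanol and poly IC arrays overlapped. In limma, Clec4d rose with poly IC by 1.68 log2 units (SE 0.17, interval 1.29 to 2.06, adjusted p = 7.71e-05) and was higher with ethanol than in naive by 1.44 (SE 0.17, adjusted p = 0.000323). Between ethanol and poly IC the difference was -0.23 (SE 0.14, interval -0.55 to 0.09, adjusted p = 0.343), and it turned to 0.02 under quantile normalization. Adjusted p for it ran from 0.0786 to 0.947 over the alternatives.

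The promoters of both lectins are printed because the genes lie next to each other and their matches differ.
Clec4e, chr6:123289822-123290121, minus strand: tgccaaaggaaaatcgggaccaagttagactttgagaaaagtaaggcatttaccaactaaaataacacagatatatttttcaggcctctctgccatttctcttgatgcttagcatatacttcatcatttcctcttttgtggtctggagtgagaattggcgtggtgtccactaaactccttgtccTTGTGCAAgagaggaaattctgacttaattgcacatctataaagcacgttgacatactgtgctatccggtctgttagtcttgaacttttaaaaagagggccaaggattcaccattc
Clec4d, chr6:123261857-123262156, plus strand: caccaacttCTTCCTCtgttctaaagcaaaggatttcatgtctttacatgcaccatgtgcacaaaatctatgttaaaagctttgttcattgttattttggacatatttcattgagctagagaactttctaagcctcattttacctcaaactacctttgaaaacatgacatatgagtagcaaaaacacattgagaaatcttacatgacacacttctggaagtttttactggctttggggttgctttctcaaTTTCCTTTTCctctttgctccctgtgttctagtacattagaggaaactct
Clec4e held a C/EBP match on the opposite strand, TTGTGCAA at -66, a motif in 10.8% of windows. Clec4d held an ISRE match, TTTCCTTTTC, beginning at the annotated start itself, a motif in 3.44% of windows, and CTTCCTC at -241. Neither window held a GAS or NF-kB match, and NF-kB letters occurred in 4.79% of windows. Of the other genes, the windows of Fcgr2b and Fcer1g held no match to any of the 5 motifs, and both windows of Fcgr3 held NF-kB, C/EBP and PU.1 matches.

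Set together, 4 of the 5 genes were higher with poly IC plus ethanol than in naive, against 8.39% of all tested genes called higher and 16.6% called either way. The median over the 5 was 1.44, against -0.11 over all genes. This comparison shares the naive array with the poly IC comparison and the ethanol arrays with the other, so the 3 sets of values are not independent.

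**Figure D2:**
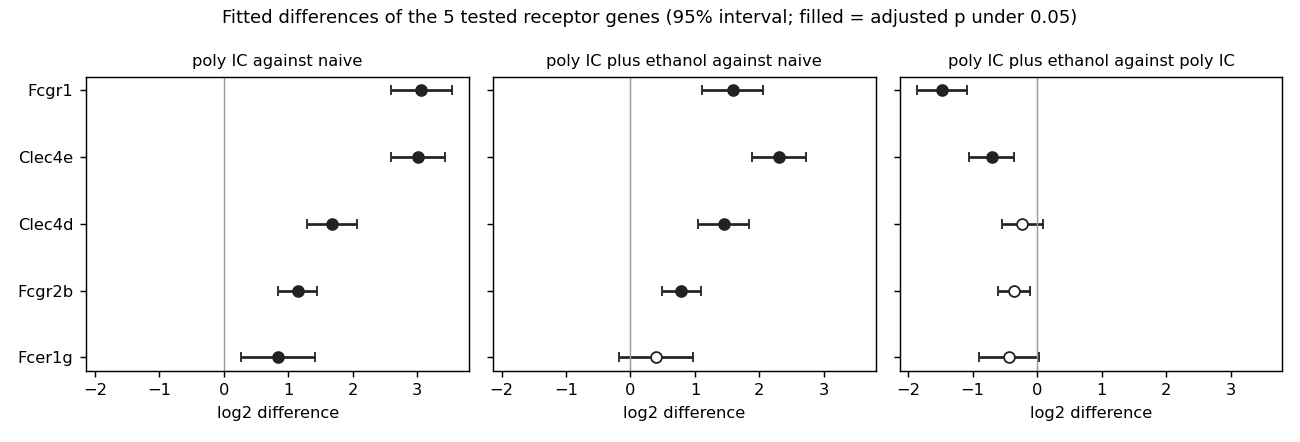
Fitted log2 differences of the 5 tested receptor genes in the 3 comparisons, with 95% intervals from limma; filled points are called at adjusted p under 0.05. Every interval lies above 0 for poly IC against naive, and those of Fcgr1, Clec4e and Fcgr2b lie below 0 for ethanol against poly IC, where Fcgr2b was not called after adjustment.

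Ratios of signal + 250 within an array were compared for all 10 pairs of the tested genes. Relative to Fcgr2b, the inhibitory receptor, log2 Fcgr1 was above its naive ratio by 1.76 and 2.07 with poly IC and by 0.91 and 0.68 with ethanol. Relative to its signalling chain Fcer1g, it was above by 2.02 and 2.43 with poly IC and by 1.13 and 1.25 with ethanol. In both ratios the ethanol arrays lay below the poly IC arrays, with differences of means of -1.12 and -1.04. Against Clec4d the shift was -1.24, and against Clec4e it was -0.77, so Fcgr1 was lower with ethanol relative to each of the other 4 genes. For each of these 4 ratios the two-sided exact permutation p was 0.333, the smallest that 2 against 2 arrays allow, and 0.556 after Benjamini-Hochberg adjustment over the 10 pairs. Clec4e relative to Clec4d moved by -0.47 in the same way, from 1.47 and 1.20 to 0.76 and 0.96 above naive (exact permutation p = 0.333). Fcgr2b relative to Fcer1g differed by 0.08 between the groups, which overlapped (exact permutation p = 1.0). Ratios of plain signals, which do not depend on an array's scaling and were added after the data were seen, kept the sign of the ethanol difference in all 10 pairs. They placed Fcgr1 relative to Clec4e at -0.28 and -0.06 from naive with poly IC, where the offset gave -0.06 and 0.16, so whether that ratio stood above or below naive with poly IC depends on the offset.

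**Figure D3:**
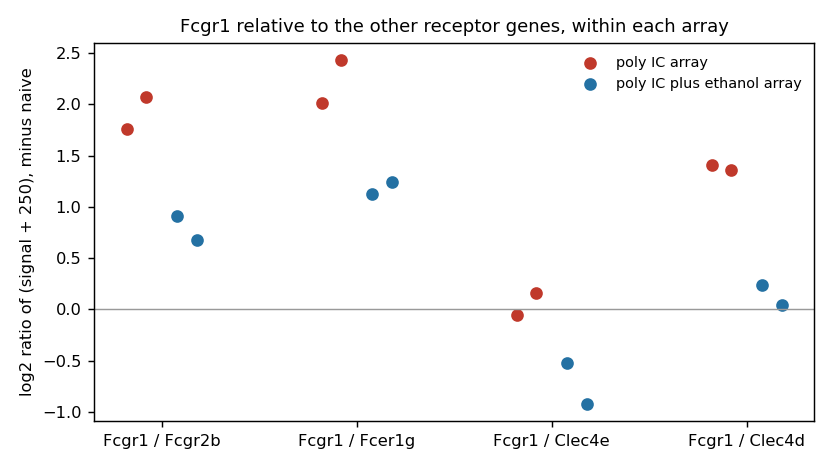
Log2 ratio of Fcgr1 to each of the other 4 tested receptor genes within each treated array, taken on signal + 250, minus the naive ratio, with 1 point per array. In each ratio both ethanol points lie below both poly IC points; without the offset both poly IC points relative to Clec4e lie below 0.

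The shapes of the profiles were set side by side by the distance between log2 profiles over the 5 arrays, each centred on its mean, as a description. Among the 5, Fcgr2b and Fcer1g were most alike (distance 0.415), then Fcgr2b and Clec4d (0.603) and Fcgr1 and Clec4e (0.888), and Fcer1g and Clec4e least (1.886). The closest tested gene to Fcgr1 was Il15, a cytokine that sustains NK cells and memory T cells (0.245), at 342.9 in naive, 4584 and 5092 with poly IC, then 2151 and 1486 with ethanol. Vcan (0.415), a proteoglycan, and Ppa1 (0.471), a pyrophosphatase, followed. For Clec4e the closest were Znfx1 (0.152), an interferon-inducible helicase, Cebpd (0.168), a C/EBP transcription factor, and Gbp2 (0.193), a guanylate-binding protein. Clec4d was closest to Rnf19b (0.214), Pfkfb3 (0.215) and Cd14 (0.231), the LPS co-receptor, which read 47180 in naive, 126412 and 147435 with poly IC, then 120787 and 122303 with ethanol. Fcgr2b was closest to Hif1a (0.103), the hypoxia factor, Nr3c1 (0.105), the glucocorticoid receptor, and Hp (0.117), haptoglobin. Fcer1g was closest to Meltf (0.069), Tox4 (0.136) and Tgif2 (0.151), of which Meltf was below the floor in the naive sample and on the second ethanol array.

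In the RefSeq GRCm38.p6 gene order, Fcgr2b, Fcgr3 and Fcer1g lie in one stretch of chromosome 1, Fcgr1 on chromosome 3, and Clec4n, Clec4d and Clec4e in a row on chromosome 6. Of 38 protein-coding neighbours, those between the genes and 5 on each side, 13 had a probe set and 11 were tested. With poly IC 1 of the 11 rose and 2 fell, shares near those of all genes (11.7% and 20.1%). With added ethanol none was called, against 10.6% of all genes called either way. None of the 11 lies on chromosome 6. The gene that rose was B4galt3, beyond Fcer1g (0.65, adjusted p = 0.0336 by limma, 0.136 and 0.125 without the first and second poly IC array). Sdhc, which lies between Fcgr3 and Fcer1g and encodes a subunit of mitochondrial complex II, stayed between 8663 and 9602 on all 5 arrays. Fcrla, near Fcgr2b and known from B cells, differed by -1.72 with poly IC and was called lower (SE 0.36, adjusted p = 0.00554). Txnip, near Fcgr1, differed by -1.21 by its brighter probe set (adjusted p = 0.000392), while its other probe set gave 0.29 (adjusted p = 0.475). Clec4a2, an inhibitory lectin of the chromosome 6 cluster that was too dim to test, was lower on the treated arrays, at 733 in naive, 302 and 315 with poly IC, then 64.1 and 25.7 with ethanol. Only its naive value was above the floor.

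Of 5 other Fc receptors tested, 1 rose and 2 fell with poly IC, against 11.7% and 20.1% of all genes. The other 2 were not called, and the median was -0.34. Trim21 rose, and Fcrla and Fcer2a, the low-affinity IgE receptor of B cells (difference -2.97, adjusted p = 0.000528), fell. Trim21, the cytosolic antibody receptor, read 3673 in naive, 23917 and 25397 with poly IC, then 14955 and 15236 with ethanol. It rose by 2.67 (SE 0.15, adjusted p = 1.09e-06) and fell with added ethanol by 0.70 (SE 0.13, adjusted p = 0.00858), a call lost without the first poly IC array (adjusted p = 0.0622) or the second (0.114). Fcgrt, the neonatal Fc receptor that recycles IgG, was not called, at 1107 in naive and 621.9 to 885.9 on the treated arrays.

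Among 12 other C-type lectins tested, 2 rose and 3 fell with poly IC, against 11.7% and 20.1% of all genes, with a median of 0.55. Centring the arrays left 1 of the falls. Olr1, the oxidised LDL receptor LOX-1, was below the floor in the naive sample (81.3) and read 5709 and 5089 with poly IC, at least 17.9-fold higher by their mean over the floor. On the ethanol arrays Olr1 read 2547 and 2044, lower than with poly IC (difference -1.16, SE 0.19, adjusted p = 0.00624, but 0.074 and 0.0563 without the first and second poly IC array). Selp, P-selectin, rose with poly IC from 23315 to 63457 and 69204 (1.50, SE 0.14, adjusted p = 3.22e-05). Cd72, an inhibitory B cell lectin, fell from 2861 to 569.9 and 647 (difference -1.86, SE 0.28, adjusted p = 0.000885). Of all genes, 4.8% were called lower and 5.77% higher with added ethanol against poly IC. With ethanol Olr1 and Selp were called lower and Cd93 higher, of which the Selp and Cd93 calls were lost without the first poly IC array (adjusted p = 0.109 and 0.205) or the second (0.27 and 0.133).

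Among the genes that carry the ITAM signal from these receptors, more fell than rose. Of 29 tested, 3 rose and 11 fell with poly IC, against 11.7% and 20.1% of all genes, and the median was -0.35. Centred arrays gave 5 rises and 7 falls, and leaving out the second poly IC array gave 7 falls. Lcp2, the adaptor SLP-76, rose by 2.04 (SE 0.14, adjusted p = 3.81e-06), from 10654 to 41521 and 47737. Lat2, the adaptor NTAL, fell by 2.22 (SE 0.21, adjusted p = 3.61e-05), from 13979 to 3048 and 2563. Blnk also fell (difference -1.155, SE 0.193, adjusted p = 0.00151). It is counted again among the B cell markers below, and a part of B cells in this list was not tested. Tyrobp, the DAP12 chain that acts beside FcR gamma, was not called, at 69123 to 84692 on the 5 arrays.

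With added ethanol 3 of the 29 were higher than with poly IC alone, Lat2, Syk and Blnk, against 5.77% of all genes called higher. None was called lower, against 4.8% of all genes. Syk, the kinase downstream of Fcer1g, read 29651 in naive, 22159 and 18326 with poly IC, then 33748 and 34131 with ethanol. The poly IC arrays were lowest and the ethanol arrays highest, without overlap. Syk fell with poly IC by 0.55 (SE 0.15, adjusted p = 0.0197), a call lost with centred arrays (-0.35, adjusted p = 0.135) and without the second poly IC array (-0.42, adjusted p = 0.108). It rose with added ethanol by 0.75 (SE 0.12, adjusted p = 0.00621, and 0.0615 without the second poly IC array). Its other probe set gave -0.73 and 0.90 for the same comparisons, both called (adjusted p = 0.0236 and 0.0124). Lat2 rose with ethanol by 1.19 (SE 0.17, adjusted p = 0.0036), to 6029 and 7428, and Blnk, a B cell adaptor, by 0.88 (SE 0.16, adjusted p = 0.00853, and 0.0721 without the first poly IC array). The count of 3 became 0 without the intensity trend and 7 without the first ethanol array.

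Of 18 tested genes on a list of inhibitory receptors, phosphatases and related regulators, 1 rose and 10 fell with poly IC. Of all genes, 11.7% rose and 20.1% fell, and the list median was -0.76. Centring the arrays left 6 falls. Cd22 and Cd72, among those that fell, are counted again among the B cell markers below, and a part of B cells was not tested. Ptpn6, the phosphatase SHP-1 that ITIM motifs recruit, fell by 1.79 (SE 0.21, adjusted p = 0.000167), from 12041 to 3507 and 3101, and read 4139 and 3323 with ethanol. Tnfaip3, the ubiquitin editor A20, rose by 5.29 (SE 0.15, adjusted p = 8.86e-09), and its ethanol arrays, at 49977 and 42527, overlapped those of poly IC at 45452 and 47450. Inpp5d encodes SHIP1, the phosphatase bound by Fcgr2b, and its 2 probe sets went opposite ways with poly IC. The brighter fell (difference -1.50, SE 0.26, adjusted p = 0.00176) and the dimmer rose by 1.49 (SE 0.30, adjusted p = 0.00542), so no direction is given for this gene. With ethanol 2 of the 18 were called higher, against 5.77% of all genes (0 without the intensity trend, 4 under quantile normalization). One was Pag1, a membrane adaptor for the kinase Csk (1.17, SE 0.17, adjusted p = 0.00389, and 0.0504 without the second poly IC array). The other was the brighter Inpp5d probe set (1.17, adjusted p = 0.00853), which was not called without the second poly IC array (0.0904) or as the mean of both probe sets (0.37, adjusted p = 0.286), and the dimmer one gave -0.44 (adjusted p = 0.32).

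For the lists here, 11.7% of all genes were called higher and 20.1% lower with poly IC. With added ethanol against poly IC, 5.77% were called higher and 4.8% lower (10.6% either way). Among 5 other receptors that pair with FcR gamma or DAP12, or use them, 2 rose with poly IC and none was called with ethanol. Both encode beta subunits of cytokine receptors, Csf2rb2 (1.03, SE 0.21, adjusted p = 0.004) and Csf2rb (0.85, SE 0.23, adjusted p = 0.0189, and 0.0724 and 0.0861 without the first and second poly IC array). Of 26 phagocytosis and oxidase genes, which act after the receptors, 3 rose and 5 fell with poly IC, shares near the 11.7% and 20.1% of all genes, with a median of -0.01; the falls numbered 10 under quantile normalization and 3 with centred arrays, with no filter or without the second poly IC array. Marcks, an actin-linked kinase substrate, rose by 3.00 (SE 0.19, adjusted p = 2.52e-06), from 3160 to 27080 and 27074. With ethanol it was the 1 gene of that list called lower and none was called higher, and the lower count was 0 without either poly IC array and 5 without the first ethanol array. Marcks read 16851 and 12453 with ethanol (difference -0.89, SE 0.16, adjusted p = 0.00827, but 0.0611 and 0.0767 without the first and second poly IC array). Cybb, the catalytic subunit of the phagocyte oxidase, rose with poly IC by 0.95 (SE 0.20, adjusted p = 0.00596), from 29209 to 58054 and 54890. The Cybb call was lost under quantile normalization (0.50, adjusted p = 0.0633) and without the intensity trend (0.0588).

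**Figure D4:**
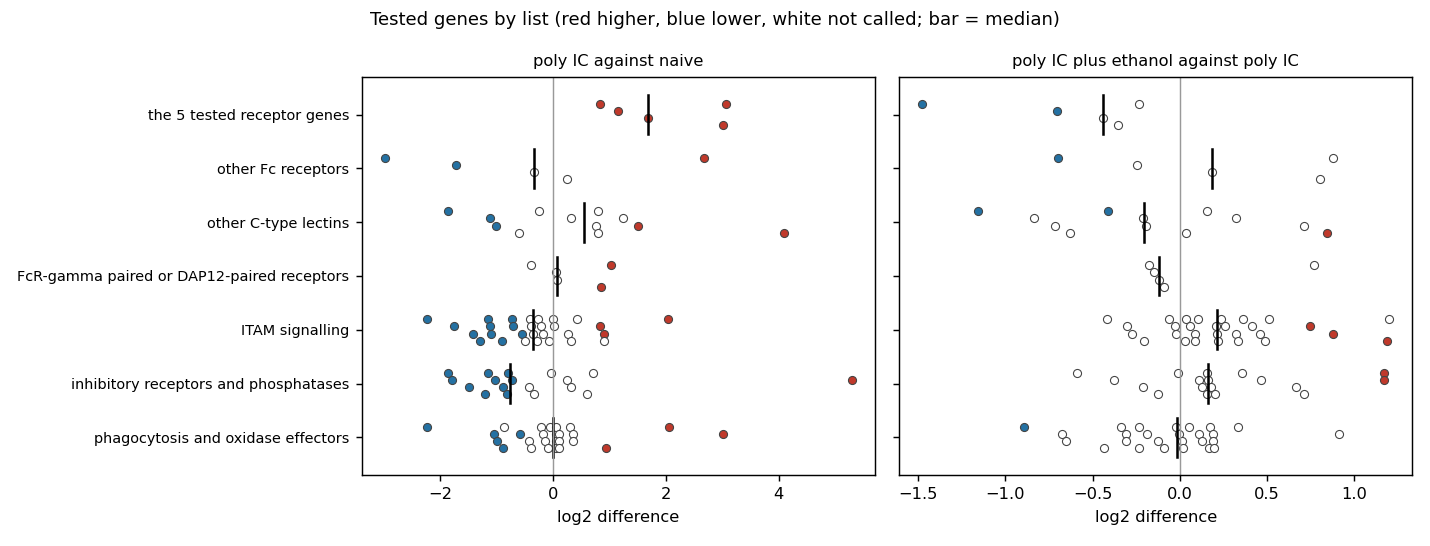
Fitted log2 difference of each tested gene, by list, for poly IC against naive and for poly IC plus ethanol against poly IC; red points were called higher, blue lower and white not called, and bars are list medians. The 5 receptor genes all lie above 0 with poly IC, whereas the ITAM signalling and inhibitory lists have medians of -0.35 and -0.76.

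Fcgr1 is also known as an interferon-induced gene, and a part of interferon in the receptor values was not tested. With poly IC 20 of 21 tested interferon-stimulated genes rose, against 11.7% of all genes. Of the 21, 6 were below the floor in naive and passed the filter on mean signal through their treated arrays, which favours this count. With added ethanol 17 of the 21 fell, against 4.8% of all genes. The 17 became 11 and 8 without the first and second poly IC array, and 7 without the intensity trend.

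Several marker lists of other cell types also moved, and their part in the receptor values was not tested. For the counts here and in the next paragraph, 11.7% of all genes were called higher and 20.1% lower with poly IC. With added ethanol against poly IC, 5.77% were called higher and 4.8% lower. Neutrophils carry Clec4d, Clec4e and Fcer1g, and 11 of 16 tested neutrophil markers rose with poly IC and 6 fell with added ethanol; without the first poly IC array these counts were 7 and 2. Summed over the 18 with a probe set, their signal was 51783 in naive, 150009 to 188038 with poly IC and 78760 to 92346 with ethanol. S100a8, abundant in neutrophils and inducible in macrophages, read 564 in naive, 56818 and 40341 with poly IC, then 10641 and 10209 with ethanol. Granule genes varied, with Mpo below the floor on all 5 arrays and Ngp above it only on the first poly IC array, at 2730. Camp rose with poly IC, from 770 to 2431 and 1595 (1.12, adjusted p = 0.0166), and Lcn2, at 277 in naive, read 12442 and 10560 with poly IC, then 7814 and 5391 with ethanol. Prtn3 fell with poly IC, from 11430 to 3916 and 3579 (difference -1.55, adjusted p = 0.000518). On each array, 9 of the 18 were below the floor in naive, 2 on each poly IC array, and 5 and 3 on the ethanol arrays. The filter used mean signal over all 5 arrays, so a marker could pass through its poly IC arrays alone, which favours these counts. Mmp8, called higher with poly IC and lower with ethanol, read 108.4 in naive, 2704 and 1257 with poly IC, then 114.1 and 142.8 with ethanol. B cells carry Fcgr2b, and 11 of 14 tested B cell markers fell with poly IC and 6 rose with ethanol (2 without the intensity trend). Their summed signal over 16 genes was 386866 in naive, 179007 to 195062 with poly IC and 253773 to 273205 with ethanol.

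NK cells carry Fcgr3. T and NK cell markers summed to 9721 in naive, 10759 to 14272 with poly IC and 8489 to 10080 with ethanol over 16 genes. Of the 16, 5 were below the floor in naive, 8 on each poly IC array, and 6 and 4 on the ethanol arrays. Of 7 tested, 2 rose (Gzma and Gzmb) and 1 fell (Klrd1) with poly IC, and Gzmb fell with ethanol; without the first poly IC array these counts were 1, 0 and 0, and without the second those with poly IC were 1 and 0. Gzmb, a cytotoxic granule protease and the largest part of both poly IC sums, read 189 in naive and 5284 and 3032 with poly IC. With ethanol it read 1060 and 1451. Ncr1 and Cd3e were below the floor on all 5 arrays, whereas Klrk1 and Cd4 were above it on all 5 and Cd3d on 4. Mast cells carry Fcer1g and eosinophils several Fc receptors, and 1 of 7 tested markers of those cells, Hdc, rose with poly IC and fell with ethanol. Without the first poly IC array, 2 of the 7 were called lower with poly IC, and 2 were called higher with ethanol. Without the second, 2 were called higher with poly IC, and 2 were called lower with ethanol. Over 14 genes their sum was 24367 in naive, 37689 to 65460 with poly IC and 30484 to 34383 with ethanol. Mcpt4, Epx and Prg2 were below the floor throughout, and Cma1, Tpsb2 and Cpa3 were above it on all 5 arrays, at 4237 to 17658, 3674 to 7909 and 1584 to 6182. The 17 resident macrophage markers summed to 484643 in naive, 574774 to 623996 with poly IC and 554667 to 599551 with ethanol. None was below the floor on any array. The sum includes Cd14, at 47180 in naive and 126412 and 147435 with poly IC. It also includes Selp, at 23315 in naive and 63457 and 69204 with poly IC, so its rise is not one of all 17 genes. Of the 17, 3 rose (Cd14, F10 and Selp) and 4 fell with poly IC (2 fell with centred arrays and 8 under quantile normalization). Gata6, which specifies large peritoneal macrophages, fell by 2.23 by its brighter probe set (SE 0.24, adjusted p = 9.38e-05), from 7218 to 1169 and 1531. Its other probe set was not called (difference -0.54, SE 0.40, adjusted p = 0.352), at 873.7 in naive and 536.2 and 508.9 with poly IC. Of 11 tested monocyte and dendritic cell markers 2 rose and 2 fell with poly IC, and 1 fell with ethanol. Ccr2, the monocyte chemokine receptor, fell by 3.37, from 17139 to 2061 and 970 (adjusted p = 0.000103), Ccr7 fell by 1.72 (adjusted p = 0.00135), and Vcan and Ccl22 rose. The sum over 12 genes, 129155 in naive and 125749 to 137343 on the treated arrays, was mostly Plac8, at 90937 in naive. Red cell genes (4) summed to 1199 in naive and to 10650 to 34127 on the treated arrays.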

How the data were processed

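Per the labels, RNA was hybridised to MG-U74Av2 arrays and summarised with Microarray Suite 5.0; Data Mining Tool 3.0 was also named. The authors deposited linear intensities, already scaled globally to 2500, which hides a broad change in RNA content. Detection calls were not used. Probe sets were named by the platform annotation with 1 symbol, updated by Entrez ID through RefSeq GRCm38.p6. Probe sets under the 40th percentile of mean signal (513) were left out, and the brightest probe set stood for a gene. A mean per group was fitted to log2(signal + 250) over all 5 arrays with limma 3.58.1 (R 4.3.3; lmFit, eBayes with an intensity trend; 2 residual and 7.63 prior degrees of freedom), with two-sided p adjusted by Benjamini-Hochberg. The script was tested on simulated data. Alternatives were offsets of 100 and 500, no filter, median centring, quantile normalization, no trend, other probe set rules, arrays left out and a replicate block. The receptor genes, lists, motifs and naming rule were chosen with earlier results of these data known. Named were the receptor genes, the 3 closest profiles, the 3 strongest called genes of each list and defining markers; only some are printed, and Fcgrt, Tyrobp, Syk beside poly IC, Cybb, Cd68, Lyz2, Cd3e, Mpo, Cma1, Tpsb2, Lcn2, Prtn3, Epx, Prg2, Klrk1, Cd4, Cd3d, Plac8, Clec4a2 and the chromosomal neighbours were named after their values were seen. Figures used matplotlib 3.10.9 in Python 3.11.15.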

Additional observations from a re-analysis of the deposited data

How the results depend on the processing

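Fcgr1 kept its calls in all 3 comparisons under every alternative run, and over the 5 tested receptor genes 56 of the alternative values for poly IC against naive kept direction and call and 4 lost the call, all of Fcer1g. For poly IC plus ethanol against naive 59 kept them and 1 lost the call. For ethanol against poly IC 64 kept them, 2 gained and 3 lost a call, and the difference of Clec4d reversed to 0.021 (adjusted p = 0.939) under quantile normalization; the cause was not tested. The 2 receptor genes called lower became 1 without the intensity trend and 1 to 4 with an array left out. The 590 genes called for ethanol against poly IC became 324 with no filter (more genes tested), 86 without the trend and 139 to 1076 with an array left out. The 1775 called for poly IC against naive became 1158 to 2367 with an array left out, and the 929 for ethanol against naive became 579 without the trend and 720 to 1520. An arm left with 1 array is assumed to vary like the others. With the replicate number as a block on the 4 treated arrays 778 genes were called, Fcgr1 and Clec4e among them (adjusted p = 0.00475 for Clec4e), but same-numbered pools share only a number (correlation of deviations 0.0501, 2 pairs). Signal near background limits Fcgr3 and the second Fcer1g probe set.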

Other observations

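Hdc, which makes histamine, moved apart from the other mast cell genes. Its signal was 2417 in naive, 28453 and 25488 with poly IC, then 12709 and 11267 with ethanol. In limma it rose with poly IC by 3.35 log2 units (SE 0.17, adjusted p = 3.9e-07) and fell with ethanol by 1.15 (SE 0.14, adjusted p = 0.00145). Cma1, a mast cell chymase, read 10450 in naive, 17658 and 4237 with poly IC, then 9541 and 7843 with ethanol, and Cpa3, a mast cell carboxypeptidase, 4270, then 6182 and 1584, then 4166 and 3401. The 2 poly IC pools thus differed in both genes, with the naive and ethanol arrays between them. Fcer1g read 2955 and 2793 in the same pools, and a part of mast cells in its signal was not tested.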
